A study of Mus musculus with 20 samples.

Results

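The 5 genes Nr3c1, Txnip, Cnr2, Tsc22d3 and Fkbp5 were followed in nascent RNA of mouse pre-B cells after nuclear entry of IKZF1. They form a set of proposed metabolic gatekeepers of B-lineage factors together with the glucocorticoid receptor and its targets, and were chosen by symbol. All 5 were found among the 56239 genes counted. The cells were of the B3 line, transduced with a retroviral Ikaros-ERt2 construct, in which IKZF1 (Ikaros) is fused to a modified estrogen receptor domain that holds it outside the nucleus until 4-hydroxytamoxifen (4-OHT) is added. Chromatin-associated RNA, which is enriched for transcripts still being made, was sequenced without treatment (0 h) and at 30 min, 1 h, 2 h, 6 h, 12 h, 15 h, 18 h, 21 h and 24 h of 500 nM 4-OHT. Each time point had 2 replicates, which made 20 libraries, all from transduced cells. Neither 4-OHT on cells without the construct nor untreated cells kept for 24 h are among these libraries, so time in culture, the drug and the fusion protein cannot be told apart. The construct comes on top of whatever IKZF1 the line makes itself. The labels list no treatment besides 4-OHT and thus name no glucocorticoid, but these data do not show whether the medium held any. Whether replicates were separate cultures is not stated in the labels, and p-values may then measure technical spread only.

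Glucocorticoid hormones enter cells and bind the glucocorticoid receptor, the product of Nr3c1, which chaperones hold in the cytoplasm and which then acts as a transcription factor. Fkbp5 and Tsc22d3 are classical targets of this receptor: FKBP5 is a co-chaperone that lowers hormone binding, so that it closes a negative feedback loop, and TSC22D3 (GILZ) is a leucine zipper protein that carries many of the anti-inflammatory effects of the hormone. Txnip encodes an alpha-arrestin that binds thioredoxin and lowers glucose uptake, and Cnr2 encodes the cannabinoid receptor of immune cells. In B-lineage leukemia NR3C1, TXNIP and CNR2 have been placed among the genes through which B-lineage transcription factors keep glucose and energy supply low, and glucocorticoids are a mainstay of its treatment.

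The libraries held 33296158 to 46868954 counts (median 40943260). The test took in the 16601 genes that reached 10 counts in 2 or more libraries, and levels are given as CPM, the count of a gene relative to the size of its library after TMM scaling. Every time after 4-OHT was set against 0 h in edgeR (quasi-likelihood test, Benjamini-Hochberg adjusted), and called genes are those with an adjusted p under 0.01 that also changed more than 2-fold. The replicates of 12 h and 18 h lay furthest apart, with a chi-square per degree of freedom of 9.04 and 13.4 against 1.24 to 4.42 at the other time points. The median log2 fold change of all genes at 24 h was -0.011 with TMM and -0.27 when only library totals were used. Markers of pre-B cells summed to between 8092 and 16310 CPM, although Rag1 and Rag2 had 0 counts in all libraries and lie wholly inside another gene. Summed markers of T cells reached at most 0.757 CPM, of myeloid cells 1.62 CPM, of erythroid cells 0.777 CPM and of stromal cells 0.0432 CPM. In bulk RNA, fewer cells making a transcript and less RNA per cell cannot be told apart.

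Of the 5 genes, 4 could be measured, and they moved in different directions and at different times. At 24 h Fkbp5 was 5.95-fold lower and Tsc22d3 2.43-fold lower than at 0 h, Cnr2 was 3.11-fold higher, and Nr3c1 was 1.40-fold higher. Nr3c1 was raised by 1 h and stayed raised. Fkbp5 first rose and then fell through every interval from 2 h on, Tsc22d3 fell, rose above its starting level at 6 h and fell again, and Cnr2 first fell and then rose. Txnip had 0 counts in all 20 libraries, which gives no level for this gene.

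**Figure D1:**
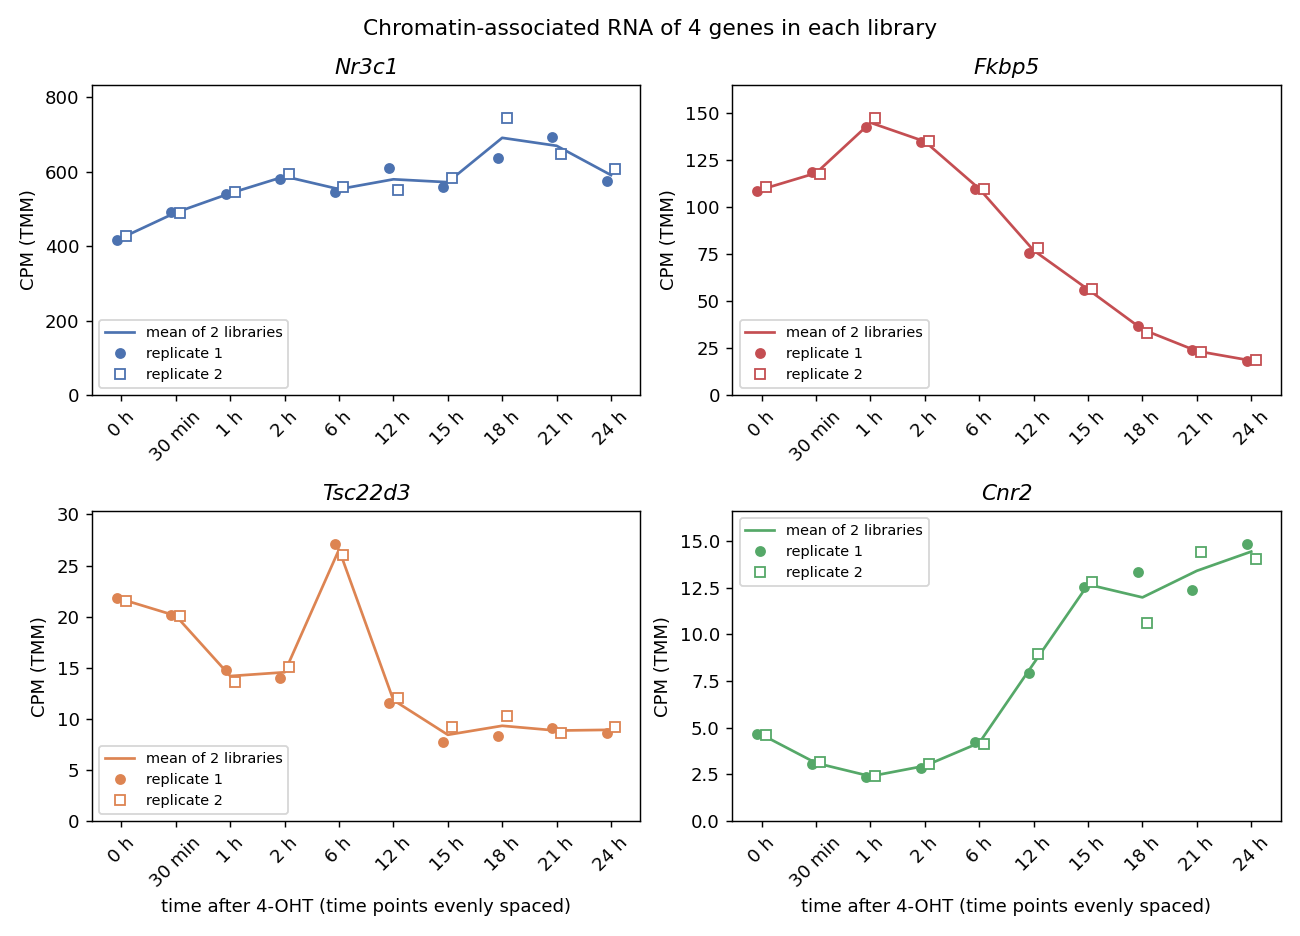
Level of Nr3c1, Fkbp5, Tsc22d3 and Cnr2 in each library, as CPM on a linear axis from 0, against time after 4-OHT with the time points evenly spaced. Filled circles are replicate 1, open squares replicate 2, and the line joins their means. Fkbp5 peaked at 1 h at 145 CPM and ended at 18.4 CPM, Tsc22d3 had a single high point at 6 h, and Cnr2 had its low point at 1 h.

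None of the 4 tested genes was called from 30 min to 12 h. Over these 5 time points the share of all tested genes called down grew from 0.41% (30 min) through 4.84% (1 h), 6.91% (2 h) and 9.13% (6 h) to 9.92% (12 h), and the share called up from 0.0542% through 2.33%, 6.25% and 10.9% to 13.2%. At 15 h Tsc22d3 was called down and Cnr2 up, against 13.1% of tested genes down and 15.3% up. Fkbp5 joined Tsc22d3 at 18 h, so that 2 of 4 genes were down and 1 up at 18 h (all genes: 17.6% down, 19.1% up), 21 h (19.4% down, 20.1% up) and 24 h (20.1% down, 20% up). Over the whole time course 3 of 4 were called, where 51.9% of tested genes were, and all 4 passed the test at any fold, as did 88% of genes. With so many genes changing, these counts do not set the 4 genes apart.

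At an adjusted p under 0.01 and any fold, only Cnr2 passed at 30 min, downward, when 4.74% of genes passed downward and 3.7% upward. At 1 h Cnr2 and Tsc22d3 had passed downward and Fkbp5 and Nr3c1 upward, against 17.1% and 19.2% of genes, and the same held at 2 h (23.8% and 23.9%). At 6 h only Tsc22d3 and Nr3c1 passed, both upward (all genes: 27.3% down, 30% up). From 12 h (29.5% down, 31.2% up) to 24 h (36.1% down, 35.4% up), Fkbp5 and Tsc22d3 passed downward and Cnr2 and Nr3c1 upward at every time point.

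**Figure D2:**
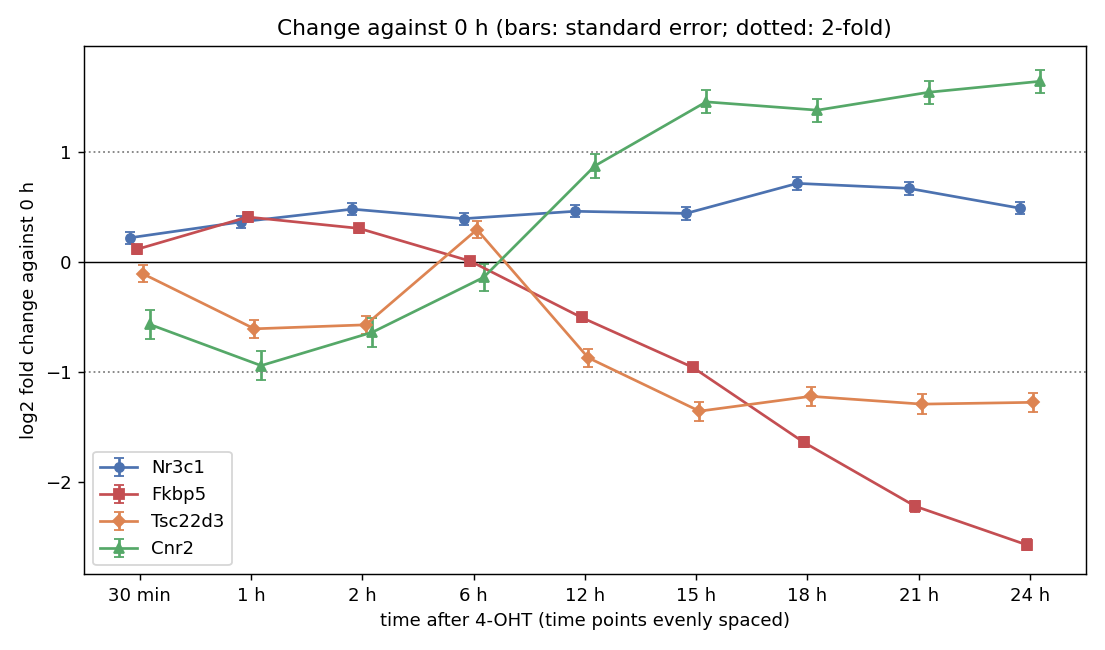
Log2 fold change against 0 h of Nr3c1, Fkbp5, Tsc22d3 and Cnr2 at each time point, evenly spaced, from edgeR's model of 20 libraries. Bars are standard errors and dotted lines mark a 2-fold change. Cnr2 ended at 1.64 and Fkbp5 at -2.57, while Nr3c1 kept between the dotted lines throughout.

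Nr3c1 (ENSMUSG00000024431), the receptor itself, spans chromosome 18 from 39410545 to 39519421 on the minus strand (GRCm38/mm10) and overlaps no other annotated gene. Its level was 417 and 428 CPM in the 2 libraries (0 h), 491 and 490 (30 min), 539 and 546 (1 h) and 581 and 594 (2 h). Each of these time points lay above the one before it, with no overlap between the replicates. The libraries held 547 and 560 CPM (6 h), 610 and 550 (12 h), and 560 and 584 (15 h). They reached 639 and 744 CPM (18 h) and 693 and 647 (21 h), and ended at 574 and 608 (24 h). No library after induction fell to the level of 0 h. The time points 6 h, 15 h, 12 h, 2 h and 24 h, in order of their means, overlapped from one to the next, and so did 21 h and 18 h, which lay above them.

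The rise of Nr3c1 was a log2 fold change of 0.22 at 30 min (standard error, SE, 0.0558, adjusted p = 0.0107), which missed the threshold. It was 0.36 at 1 h (SE 0.0557, adjusted p = 1.43e-05), 0.48 at 2 h (SE 0.0558, adjusted p = 2.21e-07) and, at its highest, 0.71 at 18 h (SE 0.0558, adjusted p = 1.51e-10). Between 2 h and 15 h no step from one time point to the next passed the test. The step from 15 h to 18 h did, at 0.27 (adjusted p = 4.96e-04), as did 16.1% of genes downward and 13% upward, but not without replicate 2 of 18 h, where it was 0.16 (adjusted p = 0.0153). It also missed the threshold without replicate 1 of 15 h (0.24, adjusted p = 0.0136). Scaled by library totals, the rise at 24 h was 0.23 in place of 0.49. The change never reached 2-fold. The profile crossed the midpoint between 0 h and its extreme at 0.974 h, in the interval from 0.5 h to 1 h, and in replicate 2 alone at 1.39 h.

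Fkbp5 (ENSMUSG00000024222), the co-chaperone of the feedback loop, spans chromosome 17 from 28399094 to 28517527 on the minus strand. Of this span, 87.1% is free of other annotated genes. The 4 genes that overlap the rest had 0 counts, which does not show that they were silent or how reads over that part were counted. The libraries held 108 and 111 CPM (0 h), 119 and 118 (30 min), 143 and 147 (1 h), and 135 and 135 (2 h). By 6 h, with 110 and 110 CPM, Fkbp5 was back within the range of the untreated libraries. It then fell to 75.7 and 78.3 CPM (12 h), 56.0 and 56.5 (15 h), 36.8 and 33.2 (18 h), 24.0 and 23.0 (21 h), and 18.1 and 18.6 (24 h). Apart from 0 h and 6 h, no time points next to each other in level overlapped, and every library from 12 h on lay below both untreated ones.

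The early rise of Fkbp5 at 1 h was a log2 fold change of 0.41 (SE 0.0413, adjusted p = 4.46e-08), and at 6 h the difference was 0.0043 (adjusted p = 0.936), whose sign depended on the scaling. Of the intervals, the step from 30 min to 1 h was upward at 0.29 (adjusted p = 5.48e-06), as it was for 16.3% of genes. From 2 h to 6 h Fkbp5 fell by 0.30 (adjusted p = 5.60e-06), as did 14.8% of genes, and from 6 h to 12 h by 0.51 (adjusted p = 4.76e-09), as did 13.5%. It went on to fall by 0.45 from 12 h to 15 h (adjusted p = 1.40e-07), where 10% of genes fell, and by 0.68 from 15 h to 18 h (adjusted p = 1.08e-09). Steps of -0.58 from 18 h to 21 h (adjusted p = 3.07e-08) and of -0.35 from 21 h to 24 h (adjusted p = 1.62e-04) followed, in intervals where 5.31% and 4.57% of genes fell. The decline had thus not ended at the last time point. Against 0 h the log2 fold change at 24 h was -2.57 (SE 0.0495, adjusted p = 2.93e-21), and the midpoint on the log2 scale was crossed at 16.4 h, between 15 h and 18 h.

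Tsc22d3 (ENSMUSG00000031431), the other receptor target, spans chromosome X from 140539528 to 140600659 on the minus strand and overlaps no other gene. It stood at 21.8 and 21.6 CPM (0 h), 20.1 and 20.1 (30 min), 14.8 and 13.6 (1 h), and 14.0 and 15.1 (2 h). At 6 h both libraries were above all others, with 27.1 and 26.0 CPM. From there Tsc22d3 went to 11.6 and 12.1 CPM (12 h), 7.70 and 9.20 (15 h), 8.35 and 10.3 (18 h), 9.09 and 8.63 (21 h), and 8.62 and 9.25 (24 h). The last 4 time points overlapped in their replicates and lay below all earlier ones.

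The changes of Tsc22d3 were in steps with little movement between them. From 30 min to 1 h it fell by 0.50 on the log2 scale (adjusted p = 3.45e-05), as did 15.7% of genes. From 2 h to 6 h it rose by 0.87 (adjusted p = 1.60e-08), as did 19.6% of genes. Both were under 2-fold. From 6 h to 12 h it fell by 1.16 (adjusted p = 3.75e-10), a step past the 2-fold threshold, as it was for 2.11% of genes downward and 2.69% upward. A further fall of 0.49 from 12 h to 15 h (adjusted p = 4.81e-04) missed the threshold without replicate 1 of 15 h (adjusted p = 0.0210). Against 0 h the log2 fold change was -0.61 at 1 h (SE 0.0798, adjusted p = 1.57e-06), 0.29 at 6 h (SE 0.0752, adjusted p = 0.00188), -1.36 at 15 h (SE 0.0867, adjusted p = 5.81e-12) and -1.28 at 24 h (SE 0.0878, adjusted p = 1.34e-11). The value at 6 h missed the threshold, at an adjusted p of 0.0137 to 0.0214, when replicate 1 or replicate 2 of 0 h or replicate 1 of 6 h was left out. Because the profile went down, up and down again, its midpoint time was not stable: it was 11.0 h from the mean profile and 0.999 h from replicate 2 alone.

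Both receptor targets ended lower while the receptor's own RNA was higher, yet their time courses differed. At 1 h Fkbp5 was above and Tsc22d3 below its untreated level, and at 6 h Tsc22d3 was above it while Fkbp5 was back at it. The Pearson correlation of their log2 CPM over the 10 time point means was 0.76, as a description of values that share libraries. With Nr3c1 the correlation was -0.63 for Fkbp5 and -0.72 for Tsc22d3.

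Cnr2 (ENSMUSG00000062585), the cannabinoid receptor, spans chromosome 4 from 135895394 to 135920207 on the plus strand with no overlapping gene, and had the lowest CPM of the 4 measured genes at 0 h. Its libraries held 4.65 and 4.62 CPM (0 h), 3.06 and 3.16 (30 min), 2.38 and 2.43 (1 h), 2.84 and 3.08 (2 h), and 4.25 and 4.14 (6 h). The lowest library, at 1 h, had 99 counts, and all libraries from 30 min to 6 h lay below the untreated pair. At 12 h the libraries held 7.94 and 8.95 CPM, followed by 12.5 and 12.8 (15 h), 13.4 and 10.6 (18 h), 12.4 and 14.4 (21 h) and 14.8 and 14.0 (24 h). Every library from 12 h on was above the untreated pair, and from 15 h on neighboring time points overlapped.

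The log2 fold change of Cnr2 was -0.57 at 30 min (SE 0.130, adjusted p = 0.00417), -0.95 at 1 h (SE 0.134, adjusted p = 4.98e-06) and -0.64 at 2 h (SE 0.131, adjusted p = 2.54e-04). The value at 30 min missed the threshold when any of the 4 libraries compared was left out, at an adjusted p of 0.0286 to 0.0397. At 6 h the difference was -0.14 (SE 0.121, adjusted p = 0.306). Cnr2 then rose by 1.01 from 6 h to 12 h (adjusted p = 3.32e-07), just past the 2-fold threshold (0.92 to 1.09 without 1 replicate), where 14% of genes rose at any fold, and by 0.58 from 12 h to 15 h (adjusted p = 9.89e-05), where 9.58% did. The step from 2 h to 6 h, at 0.50 (adjusted p = 0.00442), missed the threshold without any one of its 4 libraries, at an adjusted p of 0.0170 to 0.0425. Against 0 h, Cnr2 was at 1.45 at 15 h (SE 0.104, adjusted p = 3.88e-11) and 1.64 at 24 h (SE 0.103, adjusted p = 3.08e-12). The midpoint was crossed at 11.7 h, and at 12.3 h and 11.3 h in the replicates taken alone.

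Txnip (ENSMUSG00000038393) spans chromosome 3 from 96557957 to 96561883 on the plus strand. It lies wholly inside Gm15441 (ENSMUSG00000074398), an annotated antisense gene on the minus strand from 96555765 to 96566801. All 20 libraries listed Txnip at 0 counts. Among protein-coding genes wholly inside a gene on the opposite strand, 753 of 758 (99.3%) had 0 counts in all libraries, as did 412 of 414 (99.5%) of those inside a gene on the same strand. Of genes overlapping no other, 2244 of 11899 (18.9%) had 0 counts, and of those overlapping in part, 400 of 8884 (4.50%). The count of 0 was therefore read as no measurement, and no upper limit, fold change or test is given for Txnip.

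**Figure D3:**
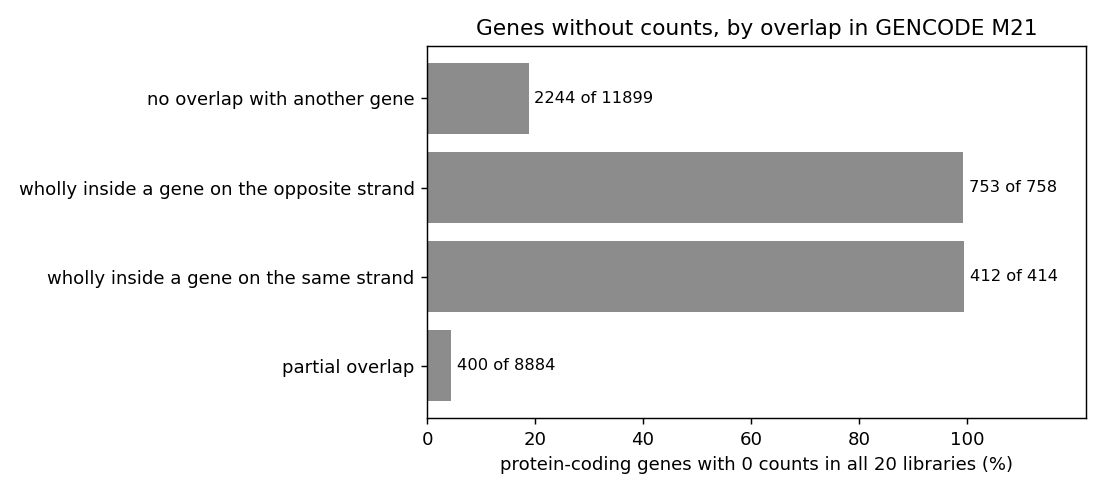
Share of protein-coding genes with 0 counts in all 20 libraries, in percent on an axis from 0, by how each gene overlaps others in GENCODE M21, with the number of genes beside each bar. Genes wholly inside another gene, the class that holds Txnip, stand at 99.3% on the opposite strand and 99.5% on the same strand, against 18.9% with no overlap.

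Gm15441, looked at because of this overlap and after its values were seen, was counted at a low level. The libraries had 76 and 74 counts (0 h), 32 and 38 (30 min), 47 and 39 (1 h), 47 and 64 (2 h), and 67 and 82 (6 h). Counts were 83 and 115 (12 h), 66 and 74 (15 h), 125 and 136 (18 h), 69 and 95 (21 h), and 65 and 78 (24 h). Both libraries were lowest at 30 min and highest at 18 h. The log2 fold change was -0.95 at 30 min (adjusted p = 0.00111), which missed the threshold when any 1 of the 4 libraries was left out, -0.77 at 1 h (adjusted p = 0.00102), which missed it without replicate 1 of 1 h (adjusted p = 0.0110), and 0.93 at 18 h (adjusted p = 3.66e-06), none of them past 2-fold. Whether counting used the strand is not stated in the sources used here. Genes inside a gene on the opposite strand lacked counts about as often as those on the same strand (99.3% and 99.5%). Why they lacked counts was not tested, and the 0 counts cannot tell whether reads fell on the body of Txnip. Whether any such reads entered the counts of Gm15441 was not tested, and these values are no level of Txnip.

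The sequence before the start of Txnip is shown because its RNA could not be measured and because the window itself lies within Gm15441. It is the 250 bases before the RefSeq start (GRCm38.p6, plus strand, chr3:96557707-96557956). The motif of CACGAG, 5 bases of any kind and CACGAG again, a pair of E-box-like elements with which MondoA and ChREBP answer to glucose, was chosen after this window had been read, and begins 85 bases before the start. It is set in capitals, and it was found on either strand in 1 of 32851 RefSeq promoter windows (0.00304%), that of Txnip. Because of how the motif was chosen, this match was fixed in advance, and its rarity gives it no support.
Txnip: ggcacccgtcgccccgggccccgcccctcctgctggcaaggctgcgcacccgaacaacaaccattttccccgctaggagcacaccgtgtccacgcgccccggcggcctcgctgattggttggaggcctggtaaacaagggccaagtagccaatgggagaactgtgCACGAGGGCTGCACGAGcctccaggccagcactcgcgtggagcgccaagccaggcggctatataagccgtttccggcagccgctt

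Windows of Fkbp5 and Cnr2 are shown as those of the genes with the strongest fall and rise. The window of Fkbp5 (chr17:28486150-28486399, minus strand) lies within its annotated body. It holds an E-box, CACGTG, in capitals, that begins 169 bases before the start, as do 7.15% of windows. RefSeq gives Cnr2 a pair of starts, and the window before the second (chr4:135911430-135911679, plus strand) lies within the gene. It holds the Ikaros core TGGGAA on the opposite strand, read as TTCCCA and set in capitals, which begins 180 bases before the start, as do 25.6% of windows. The window before the first start of Cnr2 held none of the motifs searched. The shorter IKZF1 motifs GGAA and GGGA, which the authors counted in accessible sites, were not searched in any window.
Fkbp5: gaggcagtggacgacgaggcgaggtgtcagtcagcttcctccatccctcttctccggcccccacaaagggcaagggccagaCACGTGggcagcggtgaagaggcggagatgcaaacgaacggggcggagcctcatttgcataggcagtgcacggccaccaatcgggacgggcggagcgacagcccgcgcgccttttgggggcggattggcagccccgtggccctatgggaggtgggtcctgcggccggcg
Cnr2, second start: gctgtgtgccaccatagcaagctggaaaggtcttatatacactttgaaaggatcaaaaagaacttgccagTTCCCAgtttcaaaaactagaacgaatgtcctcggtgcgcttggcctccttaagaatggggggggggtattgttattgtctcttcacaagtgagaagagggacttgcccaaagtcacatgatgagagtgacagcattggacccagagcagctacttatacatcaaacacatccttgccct

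None of the windows of Txnip, Cnr2, Tsc22d3 or Fkbp5 held the full glucocorticoid response element (AGAACA and TGTTCT with 3 bases between them). An exact match was in only 3 of 32851 windows (0.00913%), so its absence here says nothing about these genes. Elements that differ from it in either arm were not searched. The right arm TGTTCT alone was in 1 of 3 windows of Tsc22d3, 185 bases before the start, and in 19% of all windows. Another window of Tsc22d3 held TGGGAA 50 bases before its start. All motifs were searched on both strands of windows from 250 bases before to 50 after each start, and the full element contains its right arm. A match describes letters, not binding, and receptor sites far from the start were outside these windows.

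Per kb of gene body, which allows genes of different length to be set side by side, Nr3c1 had the highest level throughout, at 3.88 ± 0.0673 CPM per kb at 0 h and 5.43 ± 0.222 at 24 h (SD, n = 2). Fkbp5 went from 0.924 ± 0.0131 to 0.155 ± 0.00306, Tsc22d3 from 0.355 ± 0.00312 to 0.146 ± 0.00736, and Cnr2 from 0.187 ± 0.000820 to 0.581 ± 0.0225. Cnr2 was thus the lowest of the 4 before induction and second to Nr3c1 at the end, having passed Tsc22d3 by 12 h and Fkbp5 by 15 h. Per kb of gene body free of other genes, Fkbp5 still stood above Cnr2 at 15 h, at 0.545 against 0.510, and below it at 18 h, at 0.339 against 0.483. At 24 h Fkbp5 and Tsc22d3 lay close together, at a ratio of 1.06 against 2.60 at 0 h. The level of Nr3c1 over that of Fkbp5 went from 4.20 to 35.0, and over that of Cnr2 from 20.8 to 9.34.

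**Figure D4:**
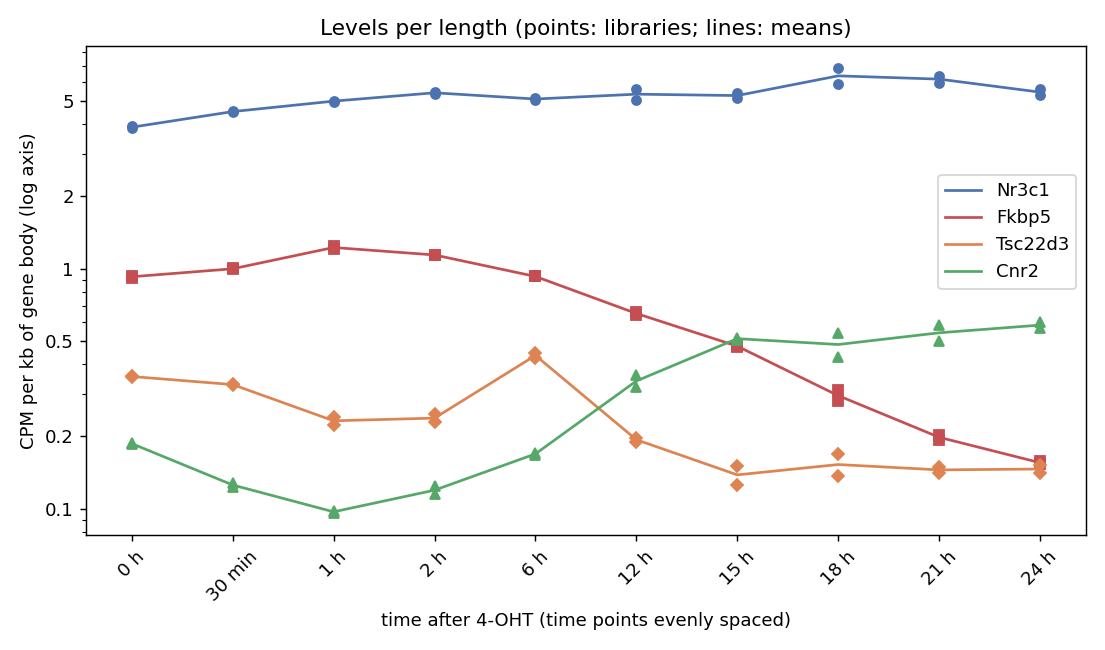
CPM per kb of gene body of Nr3c1, Fkbp5, Tsc22d3 and Cnr2 on a log axis, against time after 4-OHT with evenly spaced time points. Points are libraries and lines join the means of 2. Cnr2 rose from 0.187 to 0.581 CPM per kb and crossed Tsc22d3 and Fkbp5, which both ended near 0.15.

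Among the 12056 tested genes averaging at least 1 CPM, those most like each gene over the 10 time point means were listed by Pearson correlation of log2 CPM. Nr3c1 was closest to Abhd17b (0.980), Rab1a (0.970) and Gtf2b (0.965). Fkbp5 was closest to Blm (0.996), Mthfd1 (0.995) and Prps1 (0.995), a DNA helicase and enzymes of folate and nucleotide synthesis. The nearest profiles to Tsc22d3 were those of Eif1 (0.986), Plek (0.977) and P2rx3 (0.971), and to Cnr2 those of Rubcnl (0.991), Krba1 (0.991) and 4732465J04Rik (0.989). The order was not stable: correlated over the 20 libraries instead, Prps1 ranked 25, Rab1a 16 and Eif1 14. Blm, Abhd17b and Plek then ranked 1, and the genes nearest to Cnr2 ranked 6, 2 and 3. These values describe shape over points that share libraries, and carry no test.

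The other genes of each pathway were taken from lists written by hand. Of 17 glucocorticoid receptor targets, Fkbp5 and Tsc22d3 included, 10 were tested. At 24 h the same 2 were called down and 2 were called up, and the median log2 fold change was 0.36 against -0.011 for all genes. Of all genes tested, 20.1% were called down and 20% up at 24 h, so the targets were called in each direction at the share found over all genes. Those up were Nfkbia, which encodes the inhibitor of NF-kB, and Dusp1, a phosphatase of MAP kinases. Nfkbia went from 1.76 ± 0.0107 to 14.9 ± 0.980 CPM (log2 fold change 3.07, SE 0.108, adjusted p = 9.42e-17). Dusp1 went from 1.54 ± 0.0764 to 5.71 ± 0.280 CPM (log2 fold change 1.88, SE 0.157, adjusted p = 3.62e-10). Ddit4, an inhibitor of mTORC1, was called down at 2 h, at -1.12 (adjusted p = 2.64e-08), and stood at 0.61 at 24 h (adjusted p = 5.93e-06). Of the 7 not tested, Anxa1 lies wholly inside another gene.

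Of 19 chaperones and coregulators of the receptor, 18 were tested, of which the number called down grew from 0 (2 h) and 1 (6 h) to 6 (24 h), when 1 was up. Among all genes the share called down grew as well, from 6.91% (2 h) and 9.13% (6 h) to 20.1% (24 h), with 20% up at the last of these. The list's median log2 fold change at 24 h was -0.45, against -0.011 over all genes. Chaperones that hold the receptor ready for hormone were among the genes down at 24 h: Ptges3, which encodes p23, at -1.87 (SE 0.0463, adjusted p = 2.13e-19), Fkbp4, the immunophilin that opposes FKBP5, at -1.68 (SE 0.0682, adjusted p = 1.25e-15), Hsp90aa1 at -1.56 (SE 0.0804, adjusted p = 8.81e-14), Ppid at -1.48 (SE 0.0684, adjusted p = 1.31e-14) and Hspa8 at -1.07 (SE 0.0762, adjusted p = 2.32e-11). Other chaperones on the list were not called at 24 h: Hsp90ab1 stood at -0.86, Stip1 at -0.91, Dnajb1 at -0.075 and Bag1 at -0.097. Nr3c2, the mineralocorticoid receptor, went from 8.15 ± 0.0983 to 1.85 ± 0.339 CPM at 24 h (log2 fold change -2.13, adjusted p = 3.15e-12). It was the gene of the list called down at 6 h, at -1.75. The coactivator gene Ncoa3 was the one called up, at 1.68 (adjusted p = 1.33e-18).

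Of 12 genes of the thioredoxin system, the alpha-arrestins and the glucose sensors MondoA and ChREBP, Txnip included, 9 were tested. At 24 h 2 were called down and 2 up, beside 20.1% and 20% of all genes, with a median of 0.027. Arrdc3, an alpha-arrestin related to Txnip, went from 20.6 ± 0.238 to 121 ± 3.55 CPM (log2 fold change 2.56, SE 0.0983, adjusted p = 4.64e-16) and was up already at 2 h, at 1.42 (adjusted p = 8.25e-11). Mlxip, which encodes MondoA, rose by 1.18 (adjusted p = 1.62e-12). The thioredoxin reductase gene Txnrd1 was at -1.17 (adjusted p = 9.84e-18) and mitochondrial thioredoxin, Txn2, at -1.09 (adjusted p = 8.94e-12). Arrdc4, which overlaps no other gene, had 0 counts in all libraries.

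Of 14 genes of the cannabinoid system, Cnr2 included, 9 were tested, and at 24 h 2 were called down and 2 up, again beside 20.1% and 20% of all genes, with a median of 0.11. Besides Cnr2, the gene called up was Napepld, an enzyme that makes anandamide and related lipids, at 1.49 (SE 0.0758, adjusted p = 6.83e-14). Mgll, the lipase that breaks down 2-arachidonoylglycerol, went from 4.92 ± 0.269 CPM to 0.542 CPM by 2 h and stood at -3.26 at 24 h (SE 0.213, adjusted p = 5.65e-12). Daglb, which makes that lipid, was at -1.06 (adjusted p = 7.93e-11). Naaa, a hydrolase of the anandamide relatives, was up at 2 h at 1.15 (adjusted p = 5.94e-08) and at 24 h stood at 0.029 (adjusted p = 0.862). The brain cannabinoid receptor gene Cnr1, which overlaps no other gene, had 0 counts in all libraries.

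**Figure D5:**
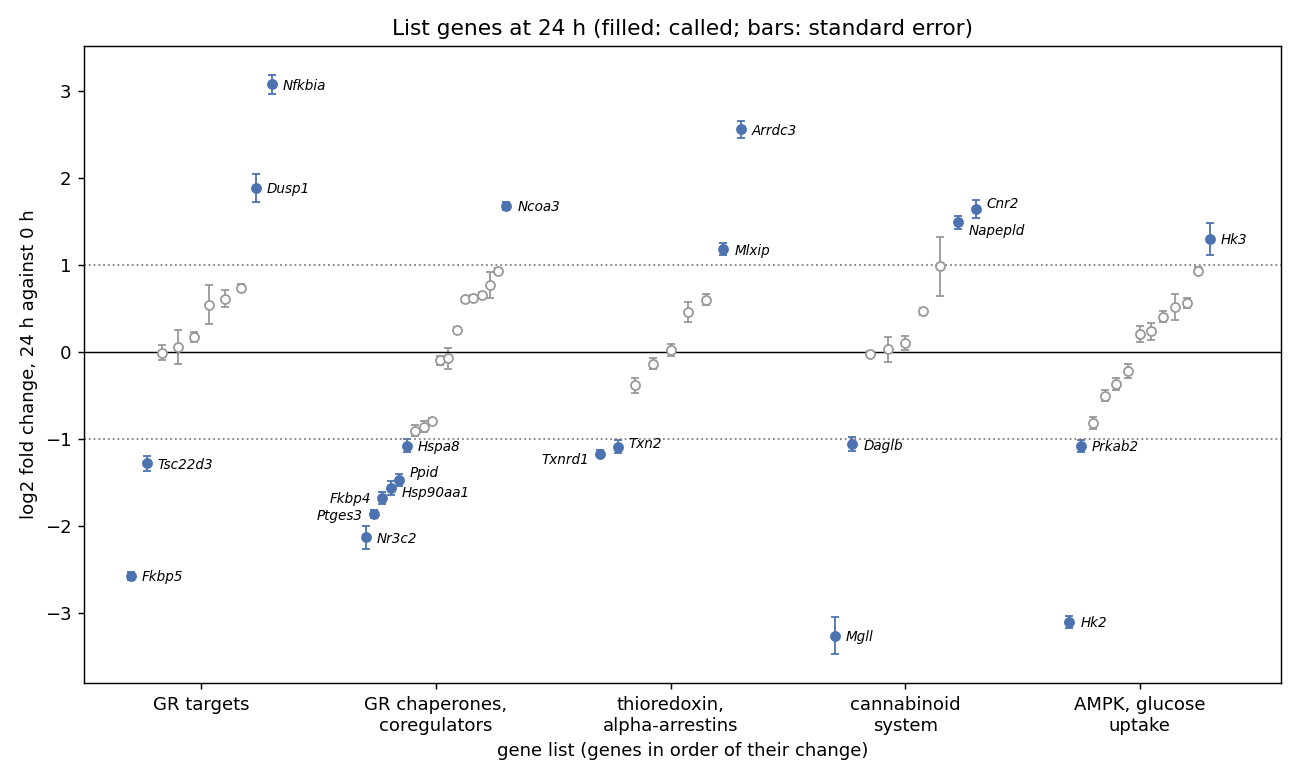
Log2 fold change at 24 h against 0 h of the tested genes of 5 lists, in order of size within each list, with standard errors as bars. Filled points with names are called, open points are not, and dotted lines mark a 2-fold change. Of the chaperones and coregulators of the glucocorticoid receptor (GR), 6 are called down and 1 up, while the GR targets called are Fkbp5 and Tsc22d3 below 0 and Dusp1 and Nfkbia above.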

How the data were processed

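The authors isolated RNA from the chromatin pellet of nuclei, made directional libraries after rRNA depletion, aligned reads to GRCm38 (mm10) and deposited raw counts per gene from featureCounts, intronic reads included. The strand setting and the treatment of reads that overlap more than 1 gene are not given in the sources used here. All 20 columns were matched to samples by time point and replicate number. For the 0 h pair the sample descriptions number the replicates differently from the column names, and titles were followed. Should both untreated libraries come from 1 culture, the 0 h spread, which enters every comparison, would be too small. The 5 genes were matched by symbol to Ensembl identifiers. Positions, gene bodies and overlaps came from GENCODE M21, which holds 55240 of 56239 identifiers.

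Genes reaching 10 counts in 2 or more libraries entered edgeR 4.0.16 (TMM, glmQLFit and glmQLFTest, time point as a factor, all 20 libraries, no replicate block) in R 4.3.3 with Benjamini-Hochberg adjustment over all tested genes. Genes were called at an adjusted p under 0.01 and a fold change above 2. Standard errors were the log2 fold change over the root of its F. Midpoint times were interpolated linearly on log2 CPM (prior count 0.5). The fit was tried on simulated counts for 24 h against 0 h only, where 83 of 97 genes changed 3-fold were called. The midpoint calculation was tried on a straight line without noise. Steps between consecutive time points were not checked in this way. Intervals and limits of counts would cover counting error only.

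The genes and lists were chosen with earlier results of these data known, and 1 gene of the chaperone and coregulator list is not reported here. Named were the 5 genes, the 3 most like each in profile, and of each list up to 4 genes with the largest and 4 with the smallest log2 fold change at 24 h among those called over the time course at 1 CPM or more. Alternatives were DESeq2 1.42.0, its size factors, library totals, other filters and thresholds, the replicate block, the 4 libraries compared alone, a test against a 2-fold change, and leaving out each replicate. Levels per free kb, the last midpoint crossing and leaving out 12 h and 18 h were added after seeing the data. Promoter sequences are RefSeq's on GRCm38.p6.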

Additional observations from a re-analysis of the deposited data

How the results depend on the processing

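Of the 496 values of the 4 genes against 0 h under the alternatives, 456 kept their direction and their side of the threshold, 27 lost the threshold, 8 gained it and 5 changed sign. The calls at 18 h, 21 h and 24 h held in number under every alternative run. Scaling by library totals added Fkbp5 at 15 h, so that 2 genes were down. Nr3c1 passed at 30 min with DESeq2 (adjusted p = 0.00664), with library totals (0.00252) and without 12 h and 18 h (1.68e-07). It also passed in edgeR with no filter (5.42e-06) and with only the 4 libraries compared (6.62e-11). Fkbp5 passed upward at 30 min in edgeR with only the 4 libraries compared (adjusted p = 0.00283) and without 12 h and 18 h (0.00347). The test against a 2-fold change ends, by its construction, the calls with smaller changes, and left 14 genes down and 0 up at 30 min over all genes against 68 and 9. With an adjusted p under 0.05, 25 were up. At 1 h it left 331 down and 93 up against 803 and 386, and a minimum of 10 counts in every library left 501 and 251. In all, 27 of 302 counts over all genes moved by more than 1.5 times. Library totals left 1 of the 2 thioredoxin and alpha-arrestin genes up at 24 h, and the 2-fold test ended the calls of Txn2, Daglb and Hspa8.

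Midpoint times moved on linear CPM to 12.8 h for Cnr2, 13.9 h for Fkbp5, 1.32 h for Nr3c1 and 0.925 h for Tsc22d3, with library totals to 11.0 h for Cnr2, and in replicate 2 alone to 1.39 h for Nr3c1 and 0.999 h for Tsc22d3. The causes were not tested. On linear CPM and in replicate 2 alone, Tsc22d3 and Nr3c1 each crossed their midpoint 2 times before their extreme.

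Sign changes concerned small differences. Fkbp5 at 6 h was -0.017 with DESeq2 and with its size factors, -0.025 with no filter, -0.011 with only the 4 libraries compared. Gm15441 at 6 h was -0.0091 with DESeq2, -0.0078 with its size factors, -0.015 with no filter and -0.0019 with only the 4 libraries. Naaa at 24 h was -0.23 with library totals, and the last step of Tsc22d3 was -0.0092.

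Leaving out 1 replicate at a time, differences that changed sign ranged from -0.014 to 0.016 for Fkbp5 at 6 h, from -0.079 to 0.098 for Gm15441 at 6 h and from -0.017 to 0.073 for Naaa at 24 h. Steps that did so, none of them past the threshold, ranged for Nr3c1 from -0.0091 to 0.14 (6 h to 12 h), from -0.092 to 0.057 (12 h to 15 h) and from -0.15 to 0.069 (18 h to 21 h). For Cnr2 they ranged from -0.26 to 0.077 (15 h to 18 h) and from -0.00017 to 0.22 (21 h to 24 h). For Tsc22d3 they ranged from -0.018 to 0.096 (1 h to 2 h), from -0.020 to 0.28 (15 h to 18 h), from -0.22 to 0.083 (18 h to 21 h) and from -0.037 to 0.065 (21 h to 24 h).

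The replicate numbers showed no common pairing: deviations from the time point means of samples with the same number had a mean correlation of 0.00121 in 45 pairs of time points (-0.472 to 0.261, 3 of them above 0.1). Such a mean cannot exclude batches shared by some time points under differing replicate numbers. With the replicate block the 4 genes gave 2 down and 1 up at 24 h, as without it, and Cnr2 at 30 min had an adjusted p of 0.00878.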

Other observations

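Genes of AMP-activated protein kinase (AMPK), which senses low cellular energy, and of glucose uptake were looked at because TXNIP and CNR2 bear on glucose supply. Of 15 genes on this list, 13 were tested. At 24 h 2 were called down and 1 up, where 20.1% of all genes were called down and 20% up, and the median log2 fold change was 0.20 against -0.011 for all genes. Hk2, the inducible hexokinase of the first step of glycolysis, went from 68.0 ± 0.177 to 29.5 CPM at 2 h and to 7.97 ± 1.21 CPM at 24 h (SD, n = 2; standard errors are given as SE). By edgeR's quasi-likelihood test its log2 fold change was -1.21 at 2 h (adjusted p = 1.47e-13) and reached -3.10 by 24 h (SE 0.0705, adjusted p = 4.81e-20). Prkab2, a regulatory subunit of AMPK, was at -1.08 at 24 h (SE 0.0686, adjusted p = 3.62e-12). Another such subunit, Prkag2, was at -0.81 (adjusted p = 7.33e-10), under the 2-fold threshold. Hk3, another hexokinase, went from 0.759 ± 0.118 to 1.87 ± 0.0762 CPM (log2 fold change 1.30, SE 0.184, adjusted p = 1.49e-06). Tested against a 2-fold change, Prkab2 (adjusted p = 0.128) and Hk3 (adjusted p = 0.0692) lost their calls. G6pdx, which makes the first enzyme of the pentose phosphate pathway, lies wholly inside another gene and had 0 counts in all libraries, like Txnip.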
